A study of Mus musculus with 58 samples.

Results

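Transplanted scramble control HSCs were compared with HSCs taken directly from old mice, by RNA-seq. The comparison used the 4 libraries of transplanted cells that carry a scramble shRNA, 2 named GFP_Scramble and 2 named Double_Scramble, against the 4 libraries of HSCs from old ad lib fed mice (OAL). These were 8 of the 34 RNA-seq libraries and 58 samples of the series, chosen by their labels. Genes were kept at a mean CPM (count scaled to the library total) of at least 5 over the 8 libraries, which left 12236 of 55376 genes.

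The study asked how lifelong calorie restriction and the receptors KDR and BMPR1A act on old HSCs, and the scramble libraries were made as controls for shRNA knockdown. OAL HSCs came from male C57BL/6 mice of 24 to 26 months (labelled WT, treatment control), fed freely all their lives, and were sorted as lineage-negative Sca-1+ c-Kit+ (LSK) cells negative for CD34 and Flk2 and positive for CD150. The scramble groups are labelled with the genotypes GFP_Scramble and Double_Scramble, treatment control. For them, HSCs of aged ad lib fed mice were put in culture with thrombopoietin and stem cell factor. The study describes their exposure, for 12 to 16 h, to both a GFP-labelled and an mCherry-labelled scramble shRNA lentivirus. After 20 to 24 h in culture the CD45.2 cells were given to lethally irradiated young female CD45.1 recipients with protective myeloid progenitors. Transduced cells were not selected before the transplant. Later the donor cells were sorted again as LSK cells negative for CD48 and positive for CD150 and CD45.2. The controls were purified as GFP+ or as GFP+mCherry+ cells. The study does not say whether both kinds came from the same recipients. The study's text puts its transplant experiments in general at 4 months and gives no time from transplant to sort for these libraries.

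Old age and diet of the donors were thus shared by design, while culture, virus, transplantation, host and sort gate were not. The study's methods give another RNA extraction (a column kit for OAL, phenol-chloroform for transplanted cells), another catalogue number of the cDNA kit and another sequencer for each group, although the labels name a single extraction and kit for both. Transduction and transplantation are confounded with library batch, and their effects cannot be told apart from each other or from those of the batch in any value below. Figure legends of the study give n = 4 for OAL mice and n = 2 for control HSCs from recipients, but neither they nor the labels say whether a library is 1 animal or a pool, so p-values measure the spread among these libraries.

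HSCs sit at the top of blood formation and spend most of their time outside the cell cycle. With age they grow in number, express more genes of the megakaryocyte and platelet line, and carry a recurrent set of age-related transcripts. After transplantation into an irradiated host, HSCs divide to rebuild the blood system before they return to rest.

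Transplanted scramble cells carried more transcripts of DNA replication and mitosis and fewer transcripts of the stem cell, quiescence and aging programs than OAL HSCs. Of 43 S phase genes 42 were higher in scramble cells and 1 was lower, and of 54 G2/M genes 53 were higher and 1 was lower, with median log2 fold changes of 1.56 and 2.00. Among 25 genes of stem cell identity 20 were lower and none was higher (median -0.77), and among 173 tested genes that rise with HSC age 154 were lower and 5 were higher (median -1.47). Genes for granule proteins of neutrophils and their progenitors were also higher, unevenly among the 4 scramble libraries. These counts stand against 12236 tested genes of which 27.3% were called higher and 29.5% lower, with a median log2 fold change of -0.000484.

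The OAL libraries held 33772852, 31258465, 30235212 and 31885467 counts on genes, the GFP_Scramble libraries 37490254 and 41580296, and the Double_Scramble libraries 38230212 and 40557302. The scramble libraries were thus deeper, yet they held counts on fewer genes. OAL libraries had counts on 43469, 42071, 43972 and 43733 genes, against 24979 and 25447 in GFP_Scramble and 25149 and 24933 in Double_Scramble. Counts on olfactory and vomeronasal receptor genes, which blood cells mostly do not express, made up 0.0530 to 0.0752% of OAL counts and 0.00286 to 0.00354% of scramble counts. Mitochondrial genes took 1.36 to 1.55% of counts in OAL and 0.750 to 0.803% in scramble libraries. Ribosomal protein genes took 2.90 to 3.64% against 2.61 to 2.79%, the 50 highest genes 10.7 to 11.8% against 7.75 to 7.92%, and the 500 highest genes 29.6 to 31.1% against 27.8 to 28.2%. For each of these 7 measures the groups did not overlap (exact permutation test, two-sided, n = 4 against 4, p = 0.0286, the smallest p this design allows, and 0.0286 after BH adjustment over the 7 measures).

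**Figure D1:**
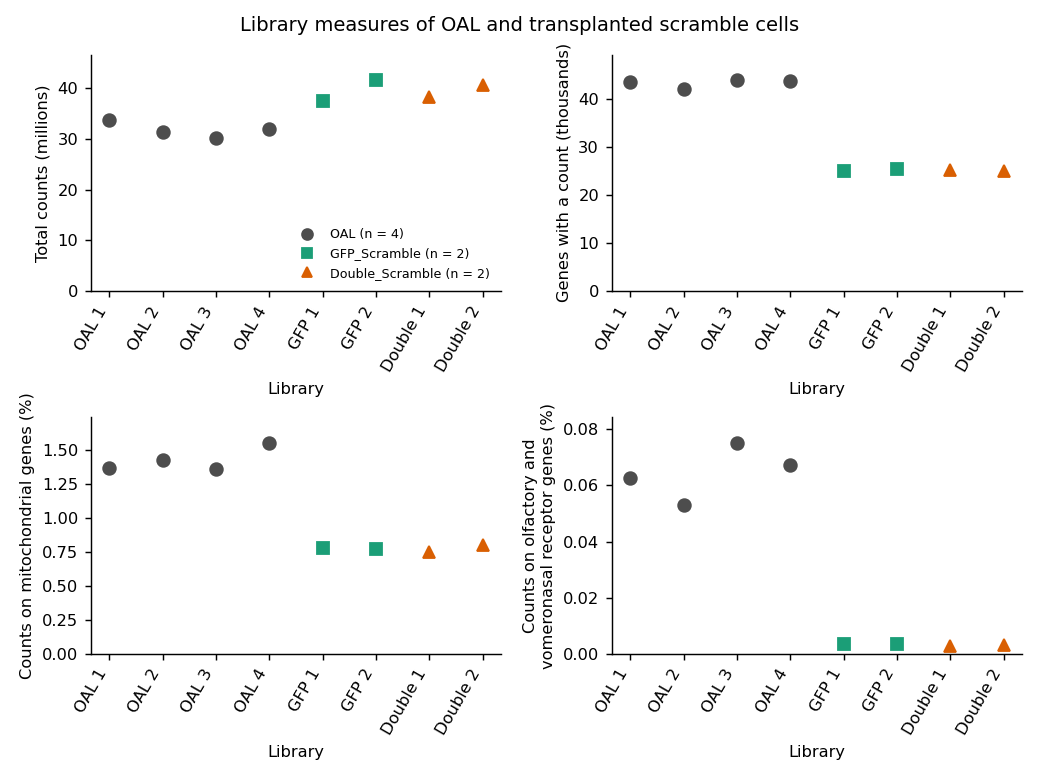
Total counts, genes with a count, and the percent of counts on mitochondrial genes and on olfactory and vomeronasal receptor genes in each of the 8 libraries (1 point per library, linear axes from 0). The scramble libraries have more counts in total (37490254 to 41580296 against 30235212 to 33772852) and counts on fewer genes (24933 to 25447 against 42071 to 43972).

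A count in every OAL library and in no scramble library was seen for 9060 genes, of which 3533 were protein-coding. They were weak: their median level in OAL was 0.268 CPM, together they held 0.339% of OAL counts, and 4 of them passed the filter at 5 CPM. The reverse, a count in every scramble library and none in OAL, held for 51 genes, of which 0 passed the filter. The filter kept 97.8 to 98.1% of counts in OAL and 98.9 to 99.0% in scramble libraries. Just inside it lay Spats2 (5.00036 CPM on average over the 8 libraries), Ap4b1 (5.00082), Gm42659 (5.00099) and Pcdhga5 (5.00503), and just outside it Zfp335os (4.99996), Sardh (4.99829), Dtna (4.99775) and Lgr5 (4.99421). No test is given for these 8 genes. Of the genes with 1 to 10 counts in a library, 68.6 to 74.6% held an even count, so counts may not be independent of each other and errors from counting alone may be too small.

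Differential expression was called at a fold change above 1.2 and an adjusted p below 0.05 in edgeR's quasi-likelihood test with Benjamini-Hochberg (BH) adjustment over all 12236 genes, after TMM scaling. In total 6947 genes (56.8% of those tested) were DEGs, 3339 (27.3%) higher and 3608 (29.5%) lower in scramble cells. Above 2-fold, 510 genes (4.17%) were higher and 1033 (8.44%) were lower. At an unadjusted p under 0.05 the count was 8658. On its own, GFP_Scramble against OAL gave 6354 DEGs (51.9%) and Double_Scramble against OAL 7157 DEGs (58.5%), and both comparisons share the OAL libraries. Higher genes made up 48.1% of the DEGs, and this share depended on the scaling. With TMM factors taken from all genes with a count, a setting chosen after seeing the data, 5279 genes were higher and 2462 lower (68.2% higher), with log2 fold changes shifted up by 0.19. A change smaller than 0.19 in the values below has no firm direction for that reason.

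On the first principal component, which held 87.6% of the variance, OAL libraries lay between -43.7 and -41.0, GFP_Scramble at 36.2 and 34.8, and Double_Scramble at 50.4 and 48.5. The next component held 3.23%, with GFP_Scramble at -16.5 and -6.82 and Double_Scramble at 12.0 and 7.93. Across genes, log2 levels of libraries from the same side had Pearson correlations of 0.983 to 0.992, and those of an OAL and a scramble library 0.858 to 0.903, a description across genes that are not independent. Genes higher in scramble cells had a median exon length of 3744 bases and a median GC content of 48.1%, genes lower in scramble cells 4886 bases and 50.5%, and all tested genes 4328 bases and 49.0%. Any part of length or GC content in the calls was not tested.

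Levels below are TMM-normalized CPM, given in the order of the library numbers, and most abundant means the highest CPM, not scaled to gene length. Markers of the sort gate were looked at first, because they bear on what the libraries hold. Kit, the receptor for stem cell factor that defines both gates, stood at 1709, 1937, 1526 and 1521 CPM in OAL, 1664 and 1649 in GFP_Scramble and 1599 and 1509 in Double_Scramble libraries. The groups overlapped and the difference missed the threshold (log2 fold change -0.06, SE 0.0727, edgeR quasi-likelihood BH-adjusted p = 0.479). Ptprc, which encodes the pan-leukocyte protein CD45, likewise ranged from 301 to 359 CPM in OAL and from 346 to 385 CPM in scramble libraries and was not a DEG (log2 fold change 0.12, SE 0.0584, edgeR quasi-likelihood BH-adjusted p = 0.0814). Slamf1, which encodes the gate marker CD150, was measured at 98.0, 109, 102 and 113 CPM in OAL, 64.9 and 75.1 in GFP_Scramble and 49.9 and 57.8 in Double_Scramble libraries. All 4 scramble libraries lay below all 4 OAL libraries (log2 fold change -0.77, SE 0.105, edgeR quasi-likelihood BH-adjusted p = 4.54e-05). Cd34 and Flt3 (Flk2) mark multipotent progenitors and were excluded in the OAL gate but were not part of the scramble gate. Cd34 was at 151, 119.8, 120.1 and 132 CPM in OAL, 424 and 357 in GFP_Scramble and 493 and 443 in Double_Scramble libraries, higher in every scramble library (log2 fold change 1.72, SE 0.100, edgeR quasi-likelihood BH-adjusted p = 7.31e-08). Flt3 rose from a mean of 14.5 ± 2.51 to 44.9 ± 7.00 CPM (mean ± SD of 4 libraries each; log2 fold change 1.63, SE 0.141, edgeR quasi-likelihood BH-adjusted p = 1.20e-06). Cd48, negative in the scramble gate, fell short of the filter and was not tested, with 0.212, 0.426, 0.854 and 0.293 CPM in OAL, 5.19 and 4.29 in GFP_Scramble and 9.02 and 6.68 in Double_Scramble libraries. It was nonetheless higher in each scramble library than in each OAL library. Ly6a (Sca-1) fell in all 4 scramble libraries (log2 fold change -0.50, SE 0.118, edgeR quasi-likelihood BH-adjusted p = 0.00268), but without both Double_Scramble libraries and GFP_Scramble library 2, which leaves 1 scramble library and the spread of OAL alone, the change was -0.20 and not called (adjusted p = 0.150 in edgeR's quasi-likelihood test with BH adjustment). Of the 12 genes listed for the sort gates 6 were tested, 2 higher and 2 lower, with a median of 0.03 whose sign turned with upper quartile scaling.

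Defining HSC markers were expressed in both groups, and all 25 listed genes of stem cell identity passed the filter. Most were lower in the scramble libraries: 20 of 25 were lower and none was higher, where 29.5% of all tested genes were lower. The median was -0.59 in GFP_Scramble and -0.97 in Double_Scramble against the same OAL libraries. Without both Double_Scramble libraries and GFP_Scramble library 2, a choice made after seeing the data, 18 fell (median -0.68). The 5 genes not called were Kit, Meis1, Hoxa9, Gfi1b and Ptprc. Hlf, a transcription factor of immature HSCs, stood at 699, 678, 687 and 630.0 CPM in OAL, 335 and 344 in GFP_Scramble and 295 and 277 in Double_Scramble libraries. Every scramble library held less than every OAL library (log2 fold change -1.11, SE 0.0695, edgeR quasi-likelihood BH-adjusted p = 1.18e-07). Procr, which encodes the endothelial protein C receptor used to purify HSCs, lay at 251, 244, 268 and 291 CPM in OAL, 148 and 163 in GFP_Scramble and 124 and 136 in Double_Scramble libraries, again without overlap (log2 fold change -0.88, SE 0.0834, edgeR quasi-likelihood BH-adjusted p = 2.30e-06). Mllt3, a chromatin reader that maintains HSCs, was at 315, 334, 362 and 347 CPM in OAL, 117 and 136 in GFP_Scramble and 77.2 and 95 in Double_Scramble libraries. It fell in both scramble groups and further in Double_Scramble (log2 fold change -1.68, SE 0.138, edgeR quasi-likelihood BH-adjusted p = 8.19e-07). Fgd5, whose locus is used for HSC reporter mice, fell from 168 ± 10.6 to 56.4 ± 9.93 CPM (mean ± SD of 4 libraries each; log2 fold change -1.57, SE 0.107, edgeR quasi-likelihood BH-adjusted p = 2.09e-07). Eng (log2 fold change -1.42), Pdzk1ip1 (-1.24), Lmo2 (-0.52) and Mecom (-0.41) fell as well, although with TMM factors from all genes Mecom was at -0.21 and no longer called. Summed over the list, the level was 9523, 9893, 9476 and 9426 CPM in OAL, 6957 and 7147 in GFP_Scramble and 6186 and 6326 in Double_Scramble libraries. In bulk RNA fewer cells of a type and less RNA of a gene per cell cannot be told apart, here and in all that follows.

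**Figure D2:**
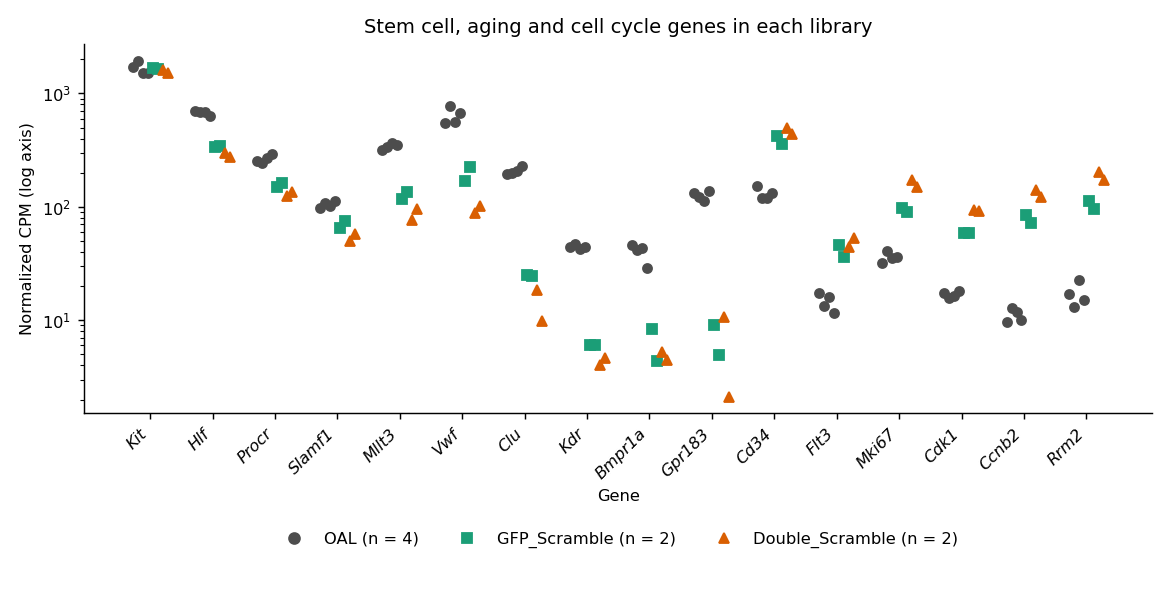
Normalized CPM (log axis) of 16 genes of stem cell identity, aging and the cell cycle in each library, 1 point per library, with OAL as circles, GFP_Scramble as squares and Double_Scramble as triangles. Kit overlaps between the groups, the genes from Hlf to Gpr183 are lower and those from Cd34 to Rrm2 are higher in every scramble library.

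Genes that hold HSCs outside the cell cycle were mostly lower, where 29.5% of all tested genes were lower and 27.3% higher. Of 17 quiescence genes 13 fell and 2 rose, with a median of -0.88, and with GFP_Scramble library 1 as the only scramble library 12 fell (median -0.57). Txnip, a glucose-responsive regulator that is abundant in resting HSCs, was at 2307, 2172, 2516 and 2864 CPM in OAL, 911 and 1161 in GFP_Scramble and 822 and 968 in Double_Scramble libraries. The groups were far apart (log2 fold change -1.35, SE 0.106, edgeR quasi-likelihood BH-adjusted p = 5.57e-07). Cdkn1c (p57), an inhibitor of cyclin-dependent kinases tied to HSC dormancy, stood at 61.5, 75.3, 70.0 and 76.0 CPM in OAL, 33.8 and 45.2 in GFP_Scramble and 30.3 and 34.7 in Double_Scramble libraries, lower in all scramble libraries (log2 fold change -0.97, SE 0.115, edgeR quasi-likelihood BH-adjusted p = 1.34e-05). Ndn, an imprinted growth suppressor, fell from 96.7 ± 3.87 to 9.18 ± 3.02 CPM (mean ± SD of 4 libraries each; log2 fold change -3.40, SE 0.185, edgeR quasi-likelihood BH-adjusted p = 4.31e-08). Gprc5c, an orphan receptor of dormant HSCs, fell to between 0.477 and 1.33 CPM from between 25.1 and 27.4 CPM (log2 fold change -5.11, SE 0.257, edgeR quasi-likelihood BH-adjusted p = 2.64e-08). Rarb, a retinoic acid receptor, and Smad7, an inhibitor of TGF-beta signaling, had log2 fold changes of -1.94 and -1.95. The 2 genes that rose were Cdkn2c (p18, log2 fold change 1.23), itself a kinase inhibitor, and Btg2 (0.33), both named after their values were seen. Cdkn1a (p21), also a target of p53, was at 9.20, 8.36, 7.31 and 7.97 CPM in OAL, 6.12 and 3.81 in GFP_Scramble and 4.68 and 3.19 in Double_Scramble libraries. It fell (log2 fold change -0.88, SE 0.193, edgeR quasi-likelihood BH-adjusted p = 0.00149), but with GFP_Scramble library 1 as the only scramble library the change was -0.41 and not called (adjusted p = 0.144 in edgeR's quasi-likelihood test with BH adjustment). The summed level of the quiescence list was 3299, 3189, 3546 and 3902 CPM in OAL, 1566 and 1819 in GFP_Scramble and 1449.5 and 1606 in Double_Scramble libraries.

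The S phase list covers DNA replication, nucleotide supply and origin licensing. Its summed level was 2590.4, 2416, 2534 and 2365 CPM in the OAL libraries, 5838 and 5270.2 in GFP_Scramble and 7248 and 6759.8 in Double_Scramble. Each scramble library held more than each OAL library, and Double_Scramble lay above GFP_Scramble. Of the 43 genes 42 rose, against 27.3% of all genes. The exception, Gins2 of the replicative helicase, fell (-0.35) and was named after its value was seen. Rrm2, the regulated subunit of ribonucleotide reductase, was at 17.0, 13.2, 22.6 and 15.2 CPM in OAL, 113 and 96.3 in GFP_Scramble and 201 and 173 in Double_Scramble libraries. No scramble library came near the OAL range (log2 fold change 3.10, SE 0.238, edgeR quasi-likelihood BH-adjusted p = 4.89e-07). Mcm5, a subunit of the helicase that unwinds replication origins, stood at 86.9, 70.4, 88.3 and 76.0 CPM in OAL, 223 and 188 in GFP_Scramble and 283 and 255 in Double_Scramble libraries (log2 fold change 1.56, SE 0.117, edgeR quasi-likelihood BH-adjusted p = 4.01e-07), and Mcm6 of the same complex, the most abundant of the list, rose from 275 ± 22.6 to 742 ± 91.1 CPM (mean ± SD of 4 libraries each). Cdc6, which loads that helicase, had a log2 fold change of 2.50, E2f8, a repressor of the E2F family that acts late in S phase, 2.62, and Rad51ap1 of homologous recombination 2.44.

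G2/M genes, which build the spindle and drive chromosome segregation, were also higher. Their summed level was 2546, 2537, 2572 and 2478 CPM in OAL, 5438 and 5074 in GFP_Scramble and 7744 and 6861 in Double_Scramble. All 4 scramble libraries held at least 5074 CPM and no OAL library more than 2572 CPM. Mki67, which coats mitotic chromosomes and serves as a proliferation marker, was at 32.3, 40.8, 35.4 and 36.2 CPM in OAL, 97.1 and 89.5 in GFP_Scramble and 172 and 151 in Double_Scramble libraries. The groups were separate and Double_Scramble was the highest (log2 fold change 1.81, SE 0.186, edgeR quasi-likelihood BH-adjusted p = 4.53e-06). Cdk1, the mitotic kinase, stood at 17.3, 15.7, 16.5 and 18.0 CPM in OAL, 59.0 and 58.9 in GFP_Scramble and 94.5 and 92.7 in Double_Scramble libraries (log2 fold change 2.18, SE 0.160, edgeR quasi-likelihood BH-adjusted p = 3.72e-07). Ccnb2, a cyclin that partners it, was measured at 9.65, 12.7, 11.8 and 10.1 CPM in OAL, 84.2 and 72.4 in GFP_Scramble and 139 and 122 in Double_Scramble libraries, the highest fold change of the list (log2 fold change 3.24, SE 0.199, edgeR quasi-likelihood BH-adjusted p = 1.04e-07). Aurkb of the chromosomal passenger complex rose from 8.52 ± 1.71 to 73.4 ± 24.6 CPM, the spindle motor Kif11 from 15.4 ± 2.53 to 129 ± 40.5 CPM and Ect2, an exchange factor of cytokinesis, from 9.20 ± 1.34 to 69.2 ± 24.3 CPM (mean ± SD of 4 libraries each). Ccna2, a cyclin of both S phase and mitosis outside these lists, had a log2 fold change of 2.16 (edgeR quasi-likelihood BH-adjusted p = 2.08e-06). The 1 gene that fell, Gas2l3 (-0.43), was named after its value was seen, and its OAL and scramble libraries overlapped. Both Double_Scramble libraries and GFP_Scramble library 2 carried the most granulocyte transcripts (below). Without them 42 of 43 S phase genes rose (median 1.42) and 52 of 54 G2/M genes (median 1.72), calls that set 1 scramble library against 4 OAL libraries and take the spread from OAL alone.

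Promoters of these genes are shown because their members moved together. The 250 bases before the start of each gene were searched on both strands for the cell cycle homology region (CHR, TTTGAA), for CCAAT, and for E2F words (TTTCCCGC, TTTCGCGC, TTTGCCGC or TTTGGCGC). Sequences were taken from RefSeq, build GRCm38.p6, by gene symbol, and 31 of 43 S phase and 47 of 54 G2/M genes had one. CHR was found in 40.4% of G2/M promoters, 16.1% of S phase promoters, 10.7% of the 9212 promoters of tested genes and 16.3% of all 27025 promoters. CCAAT was found in 76.6%, 71.0%, 37.0% and 34.5% of these promoters in the same order, and an E2F word in 4.26%, 25.8%, 3.57% and 1.91%. Of the genes more than 2-fold higher in scramble cells 353 had a promoter, with CHR in 19.6%, CCAAT in 52.7% and an E2F word in 7.93%. For 731 promoters of genes more than 2-fold lower these shares were 9.44%, 30.5% and 2.60%. A match describes the letters in this window and says nothing of a bound factor. The 150 bases before the start follow for 6 genes with their matches in capitals, each read in the direction of its gene: Cdk1 (chr10:69352913-69353062, minus strand), Mki67 (chr7:135716380-135716529, minus strand), Ccnb2 (chr9:70421555-70421704, minus strand) and Ect2 (chr3:27153879-27154028, minus strand) of G2/M, and Mcm6 (chr1:128359706-128359855, minus strand) and Mcm5 (chr8:75109359-75109508, plus strand) of S phase.
Cdk1: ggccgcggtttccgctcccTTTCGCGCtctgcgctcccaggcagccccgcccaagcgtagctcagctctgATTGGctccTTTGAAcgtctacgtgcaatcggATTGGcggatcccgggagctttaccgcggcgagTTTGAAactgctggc
Mki67: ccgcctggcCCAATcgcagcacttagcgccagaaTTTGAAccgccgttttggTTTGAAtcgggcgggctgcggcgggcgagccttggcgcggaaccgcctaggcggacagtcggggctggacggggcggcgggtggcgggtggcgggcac
Ccnb2: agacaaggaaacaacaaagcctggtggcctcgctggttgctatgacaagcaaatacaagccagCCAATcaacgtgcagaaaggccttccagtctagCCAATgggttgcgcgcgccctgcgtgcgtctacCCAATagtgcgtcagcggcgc
Ect2: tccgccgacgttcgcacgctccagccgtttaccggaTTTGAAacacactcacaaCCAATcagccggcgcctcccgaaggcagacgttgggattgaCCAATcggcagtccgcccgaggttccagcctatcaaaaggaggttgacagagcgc
Mcm6: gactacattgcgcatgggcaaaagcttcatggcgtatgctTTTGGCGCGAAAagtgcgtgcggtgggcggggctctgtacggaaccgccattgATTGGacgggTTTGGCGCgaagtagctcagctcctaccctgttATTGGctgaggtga
Mcm5: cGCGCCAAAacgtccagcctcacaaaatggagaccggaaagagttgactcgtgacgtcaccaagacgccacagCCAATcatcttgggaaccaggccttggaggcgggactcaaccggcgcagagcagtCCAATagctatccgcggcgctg
In this stretch Cdk1 holds 2 CHR, 2 CCAAT and 1 E2F word, Mki67 2 CHR and 1 CCAAT, Ccnb2 3 CCAAT, Ect2 1 CHR and 2 CCAAT, Mcm6 2 CCAAT and 3 E2F words, some of them overlapping on opposite strands, and Mcm5 2 CCAAT and 1 E2F word.

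The aging signature is a consensus of genes that differ between young and old HSCs in earlier work, listed by the study and not drawn from these libraries. Of its 180 genes that rise with age 173 were tested, and 154 of these fell and 5 rose. The summed level of these genes was 22809, 23193, 21819.8 and 23119.6 CPM in OAL, 11762 and 12485 in GFP_Scramble and 10652 and 11316 in Double_Scramble libraries. Without both Double_Scramble libraries and GFP_Scramble library 2, 153 of 176 tested genes fell, with a median of -1.34. Clu, a secreted chaperone and a frequent marker of aged HSCs, stood at 195, 199, 205 and 228 CPM in OAL, 25.0 and 24.3 in GFP_Scramble and 18.5 and 9.82 in Double_Scramble libraries. Scramble libraries held a small part of the OAL level (log2 fold change -3.41, SE 0.224, edgeR quasi-likelihood BH-adjusted p = 1.63e-07). Vwf, which encodes von Willebrand factor and marks platelet-biased HSCs, was at 553, 769, 556 and 673 CPM in OAL, 169 and 225 in GFP_Scramble and 88.0 and 101 in Double_Scramble libraries. The lowest OAL library lay above the highest scramble library, and Double_Scramble was below GFP_Scramble (log2 fold change -2.13, SE 0.254, edgeR quasi-likelihood BH-adjusted p = 1.50e-05). Selp, the adhesion receptor P-selectin, fell from 473 ± 55.5 to 182 ± 18.2 CPM (mean ± SD of 4 libraries each; log2 fold change -1.38, SE 0.0913, edgeR quasi-likelihood BH-adjusted p = 1.75e-07). Gpr183, an oxysterol receptor, was at 132, 123, 113 and 139 CPM in OAL, 9.03 and 4.91 in GFP_Scramble and 10.6 and 2.12 in Double_Scramble libraries, with a wide spread among scramble libraries below all OAL libraries (log2 fold change -4.26, SE 0.333, edgeR quasi-likelihood BH-adjusted p = 5.56e-07).

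Osmr, the oncostatin M receptor, stood at 35.2, 33.6, 27.3 and 31.5 CPM in OAL, 1.72 and 0.191 in GFP_Scramble and 0.186 and 0.199 in Double_Scramble libraries. GFP_Scramble library 1 was above the other scramble libraries but far below OAL (log2 fold change -5.81, SE 0.506, edgeR quasi-likelihood BH-adjusted p = 1.22e-06). The size of the change depended on that library: it was -7.34 for Double_Scramble against OAL and ranged from -7.34 to -4.19 over 20 settings. Matn4, an extracellular matrix protein known to limit HSC expansion, fell from a range of 78.7 to 156 CPM to one of 0.623 to 7.27 CPM (log2 fold change -5.00, SE 0.505, edgeR quasi-likelihood BH-adjusted p = 3.95e-06). Meis2, a homeobox factor, fell from 8.26 to 14.7 CPM to at most 0.214 CPM (log2 fold change -7.04, SE 0.432, edgeR quasi-likelihood BH-adjusted p = 1.05e-07). Meis2 passed the filter only through the OAL libraries. Its fold change rests on few scramble counts and ranged from -8.20 to -6.63 over 16 settings. Rbpjl, related to the Notch effector RBPJ, had a log2 fold change of -4.70, and Mmrn1, a protein of platelet granules and one of the most abundant genes of the list, -0.75. Ly6e, the most abundant gene of the list, had a log2 fold change of -0.28 that left the DEGs under scaling from all genes (-0.09) and without Double_Scramble library 1 (-0.25). The 5 genes that rose, named after their values were seen, were Mab21l2 (0.76), Gem (0.47), Phf11d (0.38), Btg2 (0.33) and Pla2g4a (0.27).

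Genes that decline with age moved the other way. Of 39 such genes 35 were tested, 30 rose and 1 fell (median 1.16). Mcm5, Rfc2 and Ect2 of this list are also on the cell cycle lists, and Flt3 and Cd34 on the progenitor list. Summed, the genes of the list stood at 1580.2, 1497, 1503 and 1533 CPM in OAL, 3370.0 and 3119 in GFP_Scramble and 3754 and 3497 in Double_Scramble. Plac8, a small cysteine-rich protein of progenitors, was at 3.81, 6.13, 8.88 and 8.72 CPM in OAL, 96.6 and 61.2 in GFP_Scramble and 90.9 and 110.4 in Double_Scramble libraries. The lowest scramble library held several times the highest OAL library (log2 fold change 3.71, SE 0.248, edgeR quasi-likelihood BH-adjusted p = 1.85e-07). Il12rb2, a subunit of the interleukin-12 receptor, had a log2 fold change of 1.99, and Mlec, a lectin of the endoplasmic reticulum, rose from 218 ± 17.4 to 492 ± 37.5 CPM (mean ± SD of 4 libraries each). The gene that fell was Lst1 (-0.67), named after its value was seen. The signature as a whole thus moved in transplanted cells from old donors opposite to the direction of age, and the share of transplantation, culture, gate and library batch in this cannot be told apart.

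Granule and lysosome genes of granulocytes and monocytes rose unevenly. Of 16 markers, all tested, 14 rose and 1 fell, and the median was 5.29. Several of them, such as Mpo, Elane and Ly6c2, were under 5 CPM in every OAL library and passed the filter only through scramble libraries. The count and the median thus describe markers that the filter kept in part for their high scramble levels. Their summed level was 754, 800.3, 706 and 892 CPM in OAL, 967 and 3005 in GFP_Scramble and 6243 and 2665 in Double_Scramble libraries. GFP_Scramble library 1 was close to OAL, and Double_Scramble library 1 was the highest. No listed marker was at 0 in all libraries of a group. Mpo, the myeloperoxidase of promyelocytes (chr11:87793581-87804413 in GRCm38, plus strand), was at 0.847, 0.951, 1.23 and 1.59 CPM in OAL, 2.09 and 29.1 in GFP_Scramble and 349.5 and 622 in Double_Scramble libraries. Double_Scramble stood far above GFP_Scramble, and the lowest scramble library was close to the highest OAL library (log2 fold change 7.76, SE 1.49, edgeR quasi-likelihood BH-adjusted p = 0.000591). Elane, neutrophil elastase, followed the same order with 0.363, 1.11, 0.376 and 0.716 CPM in OAL, 1.14 and 9.48 in GFP_Scramble and 102 and 231 in Double_Scramble libraries (log2 fold change 7.06, SE 1.43, edgeR quasi-likelihood BH-adjusted p = 0.000888). Ngp, a granule protein of later neutrophils, was at 0.484, 14.8, 4.61 and 20.7 CPM in OAL, 53.2 and 619.8 in GFP_Scramble and 1356 and 182 in Double_Scramble libraries (log2 fold change 5.77, SE 1.04, edgeR quasi-likelihood BH-adjusted p = 0.000368). Here Double_Scramble library 1 and GFP_Scramble library 2 were highest, a different order from that of Mpo. Ltf (lactoferrin), Camp (cathelicidin) and Chil3 had log2 fold changes of 6.01, 5.60 and 5.78, and the neutrophil genes Lcn2 (lipocalin) and Cd177, not on the list, 5.27 and 4.99, with Double_Scramble library 1 highest for each. Ly6c2, a surface antigen of monocytes and their progenitors, was at 0.454, 0.525, 0.273 and 0.228 CPM in OAL, 1.38 and 7.82 in GFP_Scramble and 33.6 and 38.3 in Double_Scramble libraries, higher in Double_Scramble (log2 fold change 5.76, SE 0.940, edgeR quasi-likelihood BH-adjusted p = 0.000182).

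The most abundant marker of this list was Lyz2, lysozyme, at 416, 424, 421 and 464 CPM in OAL, 484 and 661 in GFP_Scramble and 939.7 and 568 in Double_Scramble libraries. It rose (log2 fold change 0.62, SE 0.156, edgeR quasi-likelihood BH-adjusted p = 0.00390), but with GFP_Scramble library 1 as the only scramble library its log2 fold change was 0.18 and not called (adjusted p = 0.109 in edgeR's quasi-likelihood test with BH adjustment). Prtn3, proteinase 3, was the marker that fell (from 290.4 ± 37.2 to 179 ± 39.3 CPM, mean ± SD of 4 libraries each) and Csf1r the marker that was not called, both named after their values were seen. Without both Double_Scramble libraries and GFP_Scramble library 2, 9 markers passed the filter, 6 of them rose and the median was 2.55. The part of granulocytic cells or their free RNA in the other gene groups was not tested, while the counts of the stem cell, quiescence, S phase, G2/M and rising aging genes without these 3 libraries stand beside each group above. Myeloid regulators, the transcription factors and receptors of the lineage, did not move as a group: 2 of 10 tested genes rose and 2 fell, with a median of -0.01 whose sign turned with TMM factors from all genes. Spi1 (PU.1), the factor at the root of the myeloid line, rose (log2 fold change 0.36, SE 0.0536, edgeR quasi-likelihood BH-adjusted p = 8.47e-05), Runx3 had a log2 fold change of 1.54 and Runx1 of -0.70.

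**Figure D3:**
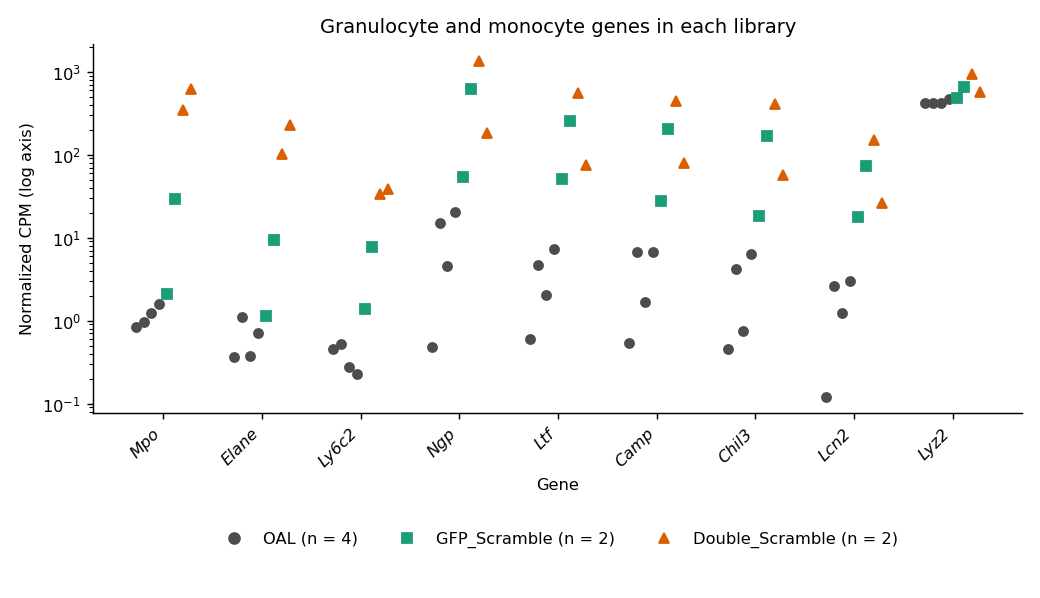
Normalized CPM (log axis) of 9 granulocyte and monocyte genes in each library, 1 point per library, with OAL as circles, GFP_Scramble as squares and Double_Scramble as triangles. For Mpo, Elane and Ly6c2 both Double_Scramble libraries are highest, while for Ngp to Lcn2 Double_Scramble library 1 and GFP_Scramble library 2 are highest.

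Markers of other cells that a bone marrow sort could hold were read in the same way. Of 14 erythroid markers 9 were tested, 5 rose and 1 fell. Their sum was 180.3, 61.3, 195 and 273 CPM in OAL, 97.1 and 159 in GFP_Scramble and 404 and 137 in Double_Scramble, and the ranges overlapped. The median was 0.51, but -0.04 without Double_Scramble library 1 and -0.86 with GFP_Scramble library 1 as the only scramble library, where 7 markers passed the filter. The most abundant, Hbb-bs of adult beta-globin, was at 78.6, 14.6, 80.8 and 126 CPM in OAL, 2.75 and 31.4 in GFP_Scramble and 46.3 and 6.03 in Double_Scramble libraries. It was called lower (log2 fold change -1.80, SE 0.745, edgeR quasi-likelihood BH-adjusted p = 0.0489), but the ranges overlapped and the call was lost with DESeq2 (-1.80, BH-adjusted p = 0.0868), among other settings. Gata1, the erythroid and megakaryocytic master factor, rose from 1.78 to 5.28 CPM in OAL to 16.9 to 36.2 CPM in scramble libraries (log2 fold change 3.04, SE 0.312, edgeR quasi-likelihood BH-adjusted p = 4.49e-06), and Klf1 and Car1 had log2 fold changes of 2.81 and 3.75. At these OAL levels Gata1 passed the filter at 5 CPM through the scramble libraries. The count of markers that rose thus describes in part what the filter kept. Of 16 megakaryocyte and platelet markers 13 were tested, 4 rose and 7 fell (median -0.67), with sums of 2926, 3244, 2811 and 3094 CPM in OAL, 1773 and 1811 in GFP_Scramble and 1449.6 and 1518 in Double_Scramble. All scramble sums were lower, and Gp6 had 0 counts in all scramble libraries. Itgb3 (integrin beta 3, -2.21) and Clec1b (-2.64) fell, whereas Ppbp, a chemokine of platelets, rose (1.38).

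Multipotent progenitor markers were higher: 6 of 10 were tested and all 6 rose, with a median of 1.67. With GFP_Scramble library 1 as the only scramble library Mpo missed the filter, Satb1 (named after its value was seen) passed it, and 5 of 6 rose and 1 fell (median 1.07). Their sum was 428, 399.7, 393 and 413 CPM in OAL, 923 and 851 in GFP_Scramble and 1398 and 1594 in Double_Scramble, and Cd34 was the most abundant. Mpo and Mki67 belong to this list as well as to those above. Sox4, a factor of early progenitors, had a log2 fold change of 0.62. Plasma cell transcripts set OAL libraries apart: Igkc, the kappa light chain, was at 189, 0.656, 63.7 and 0.521 CPM in OAL, 0 and 0.906 in GFP_Scramble and 0.160 and 0.449 in Double_Scramble libraries, and Jchain, which joins secreted antibodies, at 47.8, 0.393, 23.8 and 1.27 CPM in OAL, 0.371 and 0.691 in GFP_Scramble and 0.479 and 0.274 in Double_Scramble libraries. OAL libraries 1 and 3 alone were high. Of 8 plasma cell markers 3 were tested, 2 fell and Xbp1, the most abundant, rose by 0.28, a call lost with upper quartile scaling (0.21) and in further settings. The sum was 461, 155, 257 and 156 CPM in OAL, 219 and 212 in GFP_Scramble and 229 and 189 in Double_Scramble. The median was -5.32, but without OAL libraries 1 and 3 only Xbp1 passed the filter, at 0.44.

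Of 12 B cell markers 1 passed the filter, Cd79b, which was not called and was the most abundant, and Pax5 and Fcmr had 0 counts in every scramble library. The B cell sums were 50.8, 46.9, 56.7 and 52.3 CPM in OAL, 35.0 and 42.7 in GFP_Scramble and 36.2 and 46.8 in Double_Scramble, all below OAL. Of 12 T and NK cell markers 3 were tested and their median of 0.04 turned sign with upper quartile scaling. Nkg7, a granule membrane protein of cytotoxic cells and the most abundant of this list, was at 11.8, 12.8, 11.0 and 11.2 CPM in OAL, 118 and 92.9 in GFP_Scramble and 148 and 181 in Double_Scramble libraries. It rose in every scramble library (log2 fold change 3.53, SE 0.181, edgeR quasi-likelihood BH-adjusted p = 2.98e-08), while Klrb1c (NK1.1) fell (-3.93), Lck was not called, and Cd3g, Cd8a and Gzma had 0 counts in all scramble libraries. Their sums were 86.7, 84.9, 78.7 and 89.8 CPM, 139 and 110.3 and 164 and 195, in the order OAL, GFP_Scramble, Double_Scramble. Of 8 mast cell and basophil markers 2 were tested: Cpa3 rose (2.12) and Gata2, the most abundant and also an HSC factor, fell (-0.47), with sums of 604, 623, 639.6 and 604 CPM, 496 and 440.3 and 455 and 469. The median of these 2 was 0.82, but with GFP_Scramble library 1 alone only Gata2 passed the filter and stood at -0.34. Of 13 stromal and endothelial markers 4 were tested, Vim, the most abundant, rose (0.67) and Col1a2, Emcn and Pecam1 fell (-1.59, -0.63 and -0.37), the last not under scaling from all genes (-0.18). Their sums were 233, 226, 224 and 267 CPM, 251 and 245 and 280.4 and 269, which overlapped. The part of any of these cells in the other results was not tested.

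Nuclear and mitochondrial genes of the respiratory chain differed from each other. Of 75 nuclear OXPHOS genes 48 rose and none fell, with a median of 0.35, where 27.3% of all genes rose. Cycs, the electron carrier cytochrome c, was at 35.3, 34.2, 39.4 and 31.1 CPM in OAL, 81.7 and 74.3 in GFP_Scramble and 94.5 and 85.4 in Double_Scramble libraries, higher in scramble (log2 fold change 1.26, SE 0.0868, edgeR quasi-likelihood BH-adjusted p = 2.30e-07). Cox5a of complex IV and Uqcrq of complex III had log2 fold changes of 0.80 and 0.81, and Atp5b and Atp5a1, the most abundant, of 0.19 and 0.16, under the fold threshold. The sum of the list was 9737, 9754, 10625 and 10309.6 CPM in OAL, 12126 and 11904 in GFP_Scramble and 13030.5 and 13089 in Double_Scramble. Of 13 mRNAs encoded in the mitochondrial genome 11 were tested, 5 fell and 3 rose (median -0.25). Those that fell were mt-Nd1 (-0.34), mt-Nd2 (-0.97), mt-Nd4 (-1.15), mt-Nd5 (-0.35) and mt-Nd6 (-0.90), all subunits of complex I, and all but mt-Nd4 were named after their values were seen. The 3 that rose were mt-Co2, mt-Co3 and mt-Atp6, which lie close together on the mitochondrial genome (mt-Atp8, between them, missed the filter). For mt-Co3 the levels were 0.726, 0.557, 0.546 and 0.521 CPM in OAL, 56.6 and 55.5 in GFP_Scramble and 56.1 and 58.5 in Double_Scramble libraries. No OAL library reached 1 CPM (log2 fold change 6.58, SE 0.113, edgeR quasi-likelihood BH-adjusted p = 5.79e-12), and mt-Co2 and mt-Atp6 had log2 fold changes of 6.27 and 6.24. mt-Co1, the most abundant, was at -0.25, under the fold threshold. Parts of the mitochondrial genome have near-identical nuclear copies, and how reads shared with them were counted is not stated, so the values of these 3 genes are uncertain.

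The mitochondrial ribosomal RNAs fell. For mt-Rnr2 the levels were 5319.7, 5965, 5504 and 6831 CPM in OAL, 1242 and 1242 in GFP_Scramble and 1331 and 1377 in Double_Scramble libraries, without overlap (log2 fold change -2.19, SE 0.0751, edgeR quasi-likelihood BH-adjusted p = 1.31e-09). With mt-Rnr1 (-2.36) and Rn7sk, a nuclear RNA without a poly(A) tail (-5.70), they belong to a list of 12 non-polyadenylated or nuclear-retained RNAs, of which 11 were in the files and 8 were tested. Of these 6 fell and none rose, with a median of -0.82. Malat1, a nuclear RNA, was not called (2338 to 2937 CPM in OAL and 2522 to 2816 CPM in scramble libraries, log2 fold change 0.01, SE 0.0664, edgeR quasi-likelihood BH-adjusted p = 0.922), and Kcnq1ot1 had a log2 fold change of -0.82. The sum of the list was 9677, 10569, 9933 and 11936 CPM in OAL, 4636 and 4827 in GFP_Scramble and 4748 and 5147 in Double_Scramble. Of 80 cytosolic ribosomal protein genes 46 fell and 1 rose, where 29.5% of all tested genes fell. The median was -0.32, and over 21 settings it stayed negative, from -0.39 to -0.12, the latter under TMM factors from all genes. The size of the shift thus depended on the scaling. Rps12 was at 236, 249, 299.8 and 326 CPM in OAL, 99.9 and 108 in GFP_Scramble and 99.9 and 115 in Double_Scramble libraries, lower in all scramble libraries (log2 fold change -1.39, SE 0.0967, edgeR quasi-likelihood BH-adjusted p = 2.44e-07), and Rps21, Rpl12 and Rpl23a fell by 0.90, 0.81 and 0.78 on the log2 scale. Rpl13 was not called (0.10). The list summed to 30524, 32397, 35819 and 38919.8 CPM in OAL, 27121 and 28232 in GFP_Scramble and 27165 and 28947 in Double_Scramble. Many ribosomal protein genes have near-identical pseudogenes, and how reads shared with them were counted is not stated, so single values of this family are uncertain.

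Chaperones of the cytosol and of the endoplasmic reticulum were mostly higher, where 27.3% of all tested genes were higher and 29.5% lower. Of 20 heat shock chaperone genes 16 were tested, 12 rose and 1 fell (median 0.51), and of 20 genes of the unfolded protein response 14 rose and 1 fell (median 0.40). Hspa8, the constitutive cytosolic HSP70, was at 989, 861, 1121 and 841 CPM in OAL, 1729.9 and 1556 in GFP_Scramble and 1835 and 1623 in Double_Scramble libraries. All 4 scramble libraries were higher (log2 fold change 0.82, SE 0.0868, edgeR quasi-likelihood BH-adjusted p = 5.55e-06). Hsph1, Hspd1, Fkbp4 and Hspe1, chaperones of the cytosol and of mitochondria, had log2 fold changes of 1.15, 0.92, 0.91 and 0.83, while Hsp90ab1, the most abundant, was not called (0.09). In the endoplasmic reticulum, Hspa5 (BiP) stood at 374, 380.5, 456 and 337 CPM in OAL, 731 and 629 in GFP_Scramble and 766 and 657 in Double_Scramble libraries (log2 fold change 0.85, SE 0.0893, edgeR quasi-likelihood BH-adjusted p = 5.57e-06), Hsp90b1 rose from 291 ± 12.0 to 572 ± 47.1 CPM and Sdf2l1 from 13.9 ± 3.61 to 61.7 ± 12.4 CPM (mean ± SD of 4 libraries each), and Pdia3, a disulfide isomerase, had a log2 fold change of 0.72. The genes that fell, Dnajb4 (-0.50) and Dnajb9 (-0.60), were named after their values were seen. The heat shock list summed to 4426, 4162, 4661 and 4108 CPM in OAL, 6229 and 5847 in GFP_Scramble and 6666 and 6215 in Double_Scramble, the unfolded protein list to 4018, 3997, 4109 and 3675, 5690.3 and 5197 and 5906 and 5363. Of 22 Atf4 and serine synthesis genes 19 were tested, 9 rose and 5 fell (median 0.26). Phgdh, the first enzyme of serine synthesis, was at 147, 145, 167 and 159.5 CPM in OAL, 317 and 303 in GFP_Scramble and 307 and 313 in Double_Scramble libraries (log2 fold change 1.00, SE 0.0540, edgeR quasi-likelihood BH-adjusted p = 4.11e-08), and Mthfd2 of mitochondrial folate metabolism and Slc7a5, a transporter of large amino acids, had log2 fold changes of 2.03 and 1.09. Vldlr (-1.75) and Nupr1 (-0.89) fell.

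Immediate early and inflammatory genes were mostly lower, where 29.5% of all tested genes were lower and 27.3% higher. Of 24 immediate early genes 17 were tested, 12 fell and 1 rose (median -0.69). Jun, a subunit of AP-1, was at 54.6, 48.6, 56.2 and 62.0 CPM in OAL, 21.5 and 26.5 in GFP_Scramble and 17.2 and 15.3 in Double_Scramble libraries, with all scramble libraries below OAL (log2 fold change -1.46, SE 0.152, edgeR quasi-likelihood BH-adjusted p = 4.97e-06). Fos was below the filter, with 4.57, 2.49, 2.32 and 2.60 CPM in OAL, 1.01 and 0.953 in GFP_Scramble and 1.22 and 1.22 in Double_Scramble libraries. Egr1 stood at 166, 63.0, 56.2 and 61.7 CPM in OAL, 36.3 and 51.5 in GFP_Scramble and 27.8 and 32.9 in Double_Scramble libraries (log2 fold change -1.22, SE 0.323, edgeR quasi-likelihood BH-adjusted p = 0.00513), with OAL library 1 far above the others. The change of Egr1 ranged from -1.57 to -0.72 over 21 settings. With GFP_Scramble library 1 as the only scramble library it was -1.24 and not called. Socs3, a feedback inhibitor of cytokine signaling, fell from 53.7 ± 20.5 to 6.93 ± 0.949 CPM (mean ± SD of 4 libraries each; log2 fold change -2.95, SE 0.231, edgeR quasi-likelihood BH-adjusted p = 5.57e-07), and Fosl2 and Rhob had log2 fold changes of -1.72 and -1.43. Myc, the most abundant of the list, was not called (0.27), but without OAL library 1 it rose (0.45). The gene that rose, Dusp1 (0.27), was named after its value was seen. The sum of the list was 1473, 1081, 1091 and 1125 CPM in OAL, 950.2 and 1038 in GFP_Scramble and 956 and 972 in Double_Scramble. Of 29 genes of inflammation and NF-kB 21 were tested, 15 fell and 1, Csf2rb (0.79, named after its value was seen), rose, with a median of -0.41. Bcl3 and Traf1, a cofactor and an adaptor of the pathway, had log2 fold changes of -1.17 and -1.01 and the chemokine Ccl4 -1.50. For Nfkbia, the inhibitor of NF-kB and most abundant of the list, the value was -0.36, and the call was lost without OAL library 3 (-0.23).

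Cytokine feedback genes under STAT5 were mixed, with 4 of 17 tested genes (18 listed) higher and 6 lower and a median of -0.23. Among all tested genes 27.3% were higher and 29.5% lower. Socs2, a STAT5 target and feedback inhibitor, was at 16.2, 10.1, 8.09 and 13.1 CPM in OAL, 48.2 and 56.4 in GFP_Scramble and 44.0 and 33.6 in Double_Scramble libraries. It rose in every scramble library (log2 fold change 1.94, SE 0.206, edgeR quasi-likelihood BH-adjusted p = 6.00e-06), while the kinases Pim1 (-1.66) and Pim2 (-1.27) fell. Of 18 genes of BMP and VEGF signaling, the pathways that the knockdown arms of the study address, 12 were tested, 6 fell, 6 were not called and none rose (median -0.91). The study also counts Kdr and Bmpr1a among the genes that rise with HSC age, so this list overlaps with that one. Without OAL libraries 1 and 3, 11 were tested, 5 fell and the median was -0.47. Kdr, the VEGF receptor 2 (chr5:75932827-75978458 in GRCm38, minus strand), was at 44.1, 46.9, 42.3 and 43.9 CPM in OAL, 6.04 and 6.05 in GFP_Scramble and 4.02 and 4.68 in Double_Scramble libraries. No scramble library exceeded 6.05 CPM (log2 fold change -3.09, SE 0.130, edgeR quasi-likelihood BH-adjusted p = 7.86e-09). Bmpr1a, a type I BMP receptor (chr14:34410734-34503341 in GRCm38, minus strand), stood at 45.8, 41.2, 43.3 and 28.7 CPM in OAL, 8.29 and 4.36 in GFP_Scramble and 5.27 and 4.49 in Double_Scramble libraries, likewise without overlap (log2 fold change -2.83, SE 0.212, edgeR quasi-likelihood BH-adjusted p = 4.08e-07). Bmp4, a ligand, fell from 27.5 ± 5.85 to 3.01 ± 0.967 CPM and Bmpr2, the type II receptor, from 45.1 ± 2.52 to 14.2 ± 2.48 CPM (mean ± SD of 4 libraries each). Smad1 and Smad4, the intracellular effectors and the most abundant of the list, had log2 fold changes of -0.13 and -0.17, under the fold threshold. The list summed to 726, 668, 689.7 and 671 CPM in OAL, 472 and 491 in GFP_Scramble and 470.0 and 452 in Double_Scramble.

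Interferon, antigen presentation and p53 genes had no common direction. Of 45 interferon-stimulated genes 43 were tested, 12 rose and 9 fell, and the median of 0.03 turned sign with upper quartile scaling. Oas2, a sensor of double-stranded RNA, was at 5.78, 6.49, 5.77 and 4.55 CPM in OAL, 33.0 and 21.6 in GFP_Scramble and 30.7 and 26.7 in Double_Scramble libraries, higher in all scramble libraries (log2 fold change 2.31, SE 0.153, edgeR quasi-likelihood BH-adjusted p = 1.76e-07), and Ifi27 and Oasl1 had log2 fold changes of 1.19 and 0.97. Ifitm1 fell from 796 ± 66.4 to 366 ± 69.6 CPM (mean ± SD of 4 libraries each) and Ifitm3 had a log2 fold change of -0.58, while Ifit1, a commonly used marker of the response, was not called (log2 fold change 0.09, SE 0.145, edgeR quasi-likelihood BH-adjusted p = 0.594). Of 10 MHC class II genes 1, H2-Ob (0.83), rose and 1, the transactivator Ciita (-0.71), fell, and the median of 0.02 turned sign with upper quartile scaling. The medians were 0.30 in GFP_Scramble and -0.19 in Double_Scramble, and with GFP_Scramble library 1 as the only scramble library 5 of 10 rose and none fell (median 0.45). Cd74, the invariant chain, was at 308, 363, 533 and 321 CPM in OAL, 557 and 454 in GFP_Scramble and 232 and 249 in Double_Scramble libraries. Double_Scramble lay below all OAL libraries and GFP_Scramble within or above their range, and the pooled change was -0.03. Without both Double_Scramble libraries and GFP_Scramble library 2 it was 0.56 and called, and the call of Ciita was lost (-0.40). Of 21 class I presentation genes 7 rose and 3 fell, with a median of 0.03 of no fixed sign: the immunoproteasome genes Psmb8, Psmb10 and Psme2 had log2 fold changes of 0.60, 0.56 and 0.71, H2-Q4 of -0.71, and H2-D1 and B2m, the most abundant, were not called (-0.05 and -0.20). Of 25 p53 targets 19 were tested, 6 rose and 5 fell, and the median of 0.06 again turned with upper quartile scaling. Plk2 was at 119, 110.1, 160.3 and 109 CPM in OAL, 24.7 and 30.9 in GFP_Scramble and 14.3 and 16.7 in Double_Scramble libraries, lower in scramble libraries (log2 fold change -2.52, SE 0.216, edgeR quasi-likelihood BH-adjusted p = 1.07e-06), and Perp and Zmat3 had log2 fold changes of -2.23 and -1.36, whereas Ckap2, also a mitotic gene, was at 1.92.

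Metabolic lists moved little as groups. Of 20 glycolysis genes 5 rose and 5 fell, with a median of -0.09 that turned to 0.11 under TMM factors from all genes. Aldoc (-0.83), the glucose transporter Slc2a1 (-0.65), Ldhb (-0.60) and Hk2 (-0.60) fell, and Pkm, the last enzyme of the pathway, was not called (-0.08). Of 21 fatty acid oxidation genes 19 were tested, 5 rose and 5 fell (median 0.10). Cpt1a, which imports fatty acids into mitochondria, fell (365, 346, 331 and 396 CPM in OAL, 189.7 and 223 in GFP_Scramble and 217 and 209 in Double_Scramble libraries; log2 fold change -0.78, SE 0.0666, edgeR quasi-likelihood BH-adjusted p = 1.05e-06). Pdk4, a pyruvate dehydrogenase kinase, was at 8.74, 9.21, 9.29 and 14.6 CPM in OAL, 2.94 and 3.29 in GFP_Scramble and 1.54 and 1.27 in Double_Scramble libraries and fell in all scramble libraries (log2 fold change -2.21, SE 0.296, edgeR quasi-likelihood BH-adjusted p = 3.94e-05), while Angptl4 rose (1.19). Of 25 cholesterol synthesis genes 24 were tested, 7 rose and 3 fell (median 0.20): Idi1, Cyp51 and Sqle had log2 fold changes of 1.00, 0.68 and 0.67, Scd1, a desaturase, of -1.84, and the regulator Srebf2 was not called (-0.08). Of 26 antioxidant genes 9 rose and 5 fell (median 0.20). The metallothioneins Mt1 and Mt2 and the enzymes Gpx3 and Sod1 fell by 1.65, 2.51, 2.46 and 1.06 on the log2 scale, and the ferritin genes Fth1 and Ftl1 were not called (-0.04 and 0.12).

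Of 25 adhesion and homing receptors 24 were tested, 12 fell and 6 rose, where 29.5% of all genes fell and 27.3% rose. The median was -0.28, and -0.08 under TMM factors from all genes. Jam2, a junctional adhesion molecule, was at 107, 119, 92.8 and 139 CPM in OAL, 20.4 and 22.5 in GFP_Scramble and 16.4 and 16.9 in Double_Scramble libraries (log2 fold change -2.59, SE 0.132, edgeR quasi-likelihood BH-adjusted p = 2.97e-08). Itgb3 and Alcam had log2 fold changes of -2.21 and -1.47, Cd47, the signal that protects cells from phagocytosis, rose (0.45), and Itgb1 was not called (0.09). Of 26 imprinted genes 14 were tested, 9 fell and 1, Phlda2 (0.84, named after its value was seen), rose (median -0.73). Meg3, a maternally expressed long noncoding RNA, was at 43.4, 52.2, 27.0 and 57.6 CPM in OAL, 0 and 0.048 in GFP_Scramble and 0 and 0.05 in Double_Scramble libraries. Scramble libraries held at most 0.05 CPM (edgeR quasi-likelihood BH-adjusted p = 5.30e-09), and Dlk1, a paternally expressed ligand of the same cluster, fell from 17.1 to 34.7 CPM to at most 0.638 CPM (log2 fold change -6.21, SE 0.388, edgeR quasi-likelihood BH-adjusted p = 1.14e-07). Snrpn had a log2 fold change of -2.64, and Gnas and Ube3a, the most abundant, were not called. Of 22 circadian and glucocorticoid genes 19 were tested, 8 fell and 3 rose (median -0.37): Per1 fell (-1.22), Fkbp5, a glucocorticoid-induced chaperone, rose (0.98), and Bhlhe40 fell (-0.94), the last not called with GFP_Scramble library 1 as the only scramble library. Of 16 lymphoid priming genes 9 were tested, 5 fell and 3 rose (median -0.35), with Notch1 at 74.0, 66.9, 72.0 and 80.9 CPM in OAL, 21.6 and 21.3 in GFP_Scramble and 18.8 and 18.8 in Double_Scramble libraries (log2 fold change -1.87, SE 0.08, edgeR quasi-likelihood BH-adjusted p = 8.38e-09), Mef2c at -0.49 and Bcl11a at -0.72 down and Cd52 at 3.46 up. Of 24 polycomb and chromatin methylation genes 9 rose and 9 fell, and the median of -0.17 turned to 0.02 under TMM factors from all genes. The members that rose included Uhrf1 (1.69), Ezh2 (1.25) and Dnmt1 (1.22), which copy chromatin marks after replication, and Kdm6b, a demethylase, fell (-1.52). Of 10 sex-linked genes 8 were tested, 3 rose and 1 fell, with a median of 0.06 whose sign turned with scaling. The Y-linked genes Ddx3y (96.9 to 119 CPM in OAL, 108 to 130 CPM in scramble libraries) and Uty (61.1 to 73.3 and 87.5 to 95.9 CPM) were well expressed in all 8 libraries. Xist, the RNA of the inactive X chromosome in female cells, was below the filter (6.11, 5.41, 3.24 and 8.69 CPM in OAL, 6.20 and 2.48 in GFP_Scramble and 3.70 and 4.21 in Double_Scramble libraries), and its groups overlapped.

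The largest falls among protein-coding genes were those of predicted genes. Gm10800 was at 7926, 6578, 10874 and 7171 CPM in OAL, 1.03 and 1.76 in GFP_Scramble and 0.372 and 0.548 in Double_Scramble libraries, and Gm10801 fell from 882 to 1518 CPM to at most 0.053 CPM. For Gm10715, with 0 counts in every scramble library, a floor of 3 counts per library gives a level at least 507-fold lower. Gm10718 and Gm11168 had 1 to 3 counts in the scramble libraries together and ratios of 20274 (95% interval 3639 to 800800.0) and 10734 (95% interval 2972 to 88638), with intervals that cover counting error only and may be too narrow. Gm10717, Gm10719, Gm10721, Gm10722, Gm17535 and Gm21738 had at most 0.212 CPM in any scramble library. These 11 are predicted genes with close copies, the treatment of reads that map to several places is not stated, and their values are uncertain as measures of single genes. Among protein-coding genes whose OAL and scramble libraries did not overlap, the largest rises were those of Mpo, Elane and the 3 mitochondrial genes above, and of 7 myeloid genes.

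Double_Scramble and GFP_Scramble differed from each other at 206 of 12236 genes (1.68%), 111 (0.907%) higher and 95 (0.776%) lower in Double_Scramble, with 1839 genes at an unadjusted p under 0.05. The count rested on single libraries: it was 74 (20 higher and 54 lower) without Double_Scramble library 1 and 46 without GFP_Scramble library 2, where the group of 1 library is assumed to vary like the others. It was 156 (99 higher and 57 lower) without Double_Scramble library 2. A fit of the 4 scramble libraries alone called 154 genes, 116 higher and 38 lower. DESeq2 called 524 genes, and without a filter edgeR called 656. G2/M genes stood out in number, with 27 of 54 higher in Double_Scramble and none lower. Of 43 S phase genes 8 were higher and none lower. With the 4 scramble libraries alone 33 and 8 were higher, and with 1 scramble library left out 5 to 24 and 0 to 6. For Ccna2 the levels were 28.8, 30.3, 32.5 and 32.4 CPM in OAL, 101 and 94.5 in GFP_Scramble and 185 and 174 in Double_Scramble libraries, and Double_Scramble was higher (log2 difference 0.88, SE 0.0782, edgeR quasi-likelihood BH-adjusted p = 0.00136). Mki67 (0.79), Cdk1 (0.67) and Rrm2 (0.84) were higher too. Rrm2 was also called with the 4 scramble libraries alone, but not in every fit with 1 of them left out. Of 16 granulocyte and monocyte markers 5 were higher in Double_Scramble: Mpo (4.95), Elane (4.95), Ctsg (4.52), Ly6c2 (2.96) and Ms4a3 (2.71), the last named after its value was seen. With the 4 scramble libraries alone 3 were called. Gm11505, annotated antisense to Mpo, was at 5.00, and without knowledge of strand in the counting it cannot be separated from Mpo. The part of granulocytic cells in the difference was not tested.

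Lower in Double_Scramble in the fit of 3 groups were 17 of 173 genes that rise with age, among them Vwf (log2 difference -1.06, SE 0.163, edgeR quasi-likelihood BH-adjusted p = 0.0110), and 3 of 25 stem cell identity genes, Ly6a (-0.48), Fgd5 (-0.43) and Mllt3 (-0.55). With the 4 scramble libraries alone these counts were 7 and 1, and with 1 scramble library left out 7 to 21 and 0 to 3. Of the MHC class II genes Cd74 and H2-Eb1 were lower (both -1.07), the latter named after its value was seen, while 4 of the 10 were lower with the 4 scramble libraries alone and none was called with 1 scramble library left out. Chrm3, a muscarinic receptor, stood at 23.7, 27.8, 24.8 and 30.8 CPM in OAL, 2.81 and 2.57 in GFP_Scramble and 0.665 and 0.773 in Double_Scramble libraries and was lower in Double_Scramble than in GFP_Scramble and in both than in OAL (log2 difference -1.90, SE 0.220, edgeR quasi-likelihood BH-adjusted p = 0.00553 between the scramble groups). Robo1, a guidance receptor, was at 6.14, 7.80, 5.39 and 7.25 CPM in OAL, 7.68 and 6.39 in GFP_Scramble and 2.26 and 1.65 in Double_Scramble libraries. Only Double_Scramble lay below the OAL range (log2 difference -1.85, SE 0.248, edgeR quasi-likelihood BH-adjusted p = 0.00650). Khdrbs3 (-1.85) and Ddr1 (-1.72) were the other large falls. Chrm3, Khdrbs3 and Ddr1 were not called with the 4 scramble libraries alone, and Robo1 was. In the plot of list medians, the distance from OAL was larger for Double_Scramble than for GFP_Scramble in S phase (1.74 and 1.32), G2/M (2.29 and 1.64) and rising aging genes (-1.62 and -1.31), values that share the OAL libraries. Whether the mCherry-labelled virus in the cells, the mCherry gate or another step made the groups differ was not tested.

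**Figure D4:**
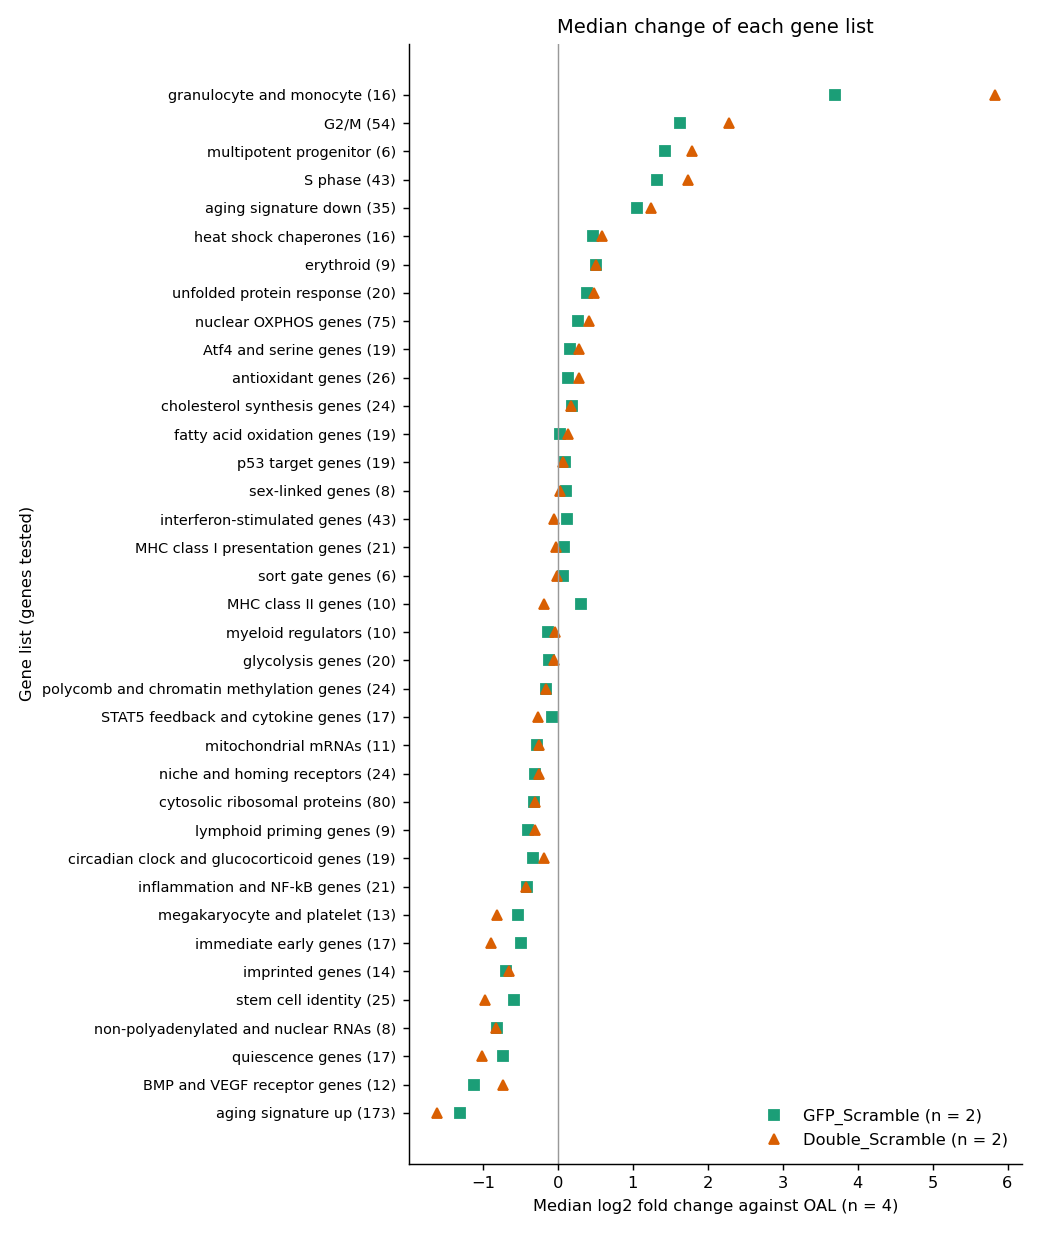
Median log2 fold change against OAL of every gene list with at least 6 tested genes, for GFP_Scramble (squares) and Double_Scramble (triangles), with the number of tested genes beside each name and a line at 0. Granulocyte, G2/M, progenitor and S phase lists lie to the right and aging, quiescence and stem cell lists to the left, while lists with medians between -0.19 and 0.07 in the pooled comparison change sign or can do so with the scaling.

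Sums of the lists in the other RNA-seq groups are given for scale, in CPM of the deposited totals and with no test. For the S phase list, native groups ranged from 2127 CPM in refed young mice (YCRRF) to 4405 CPM in old calorie-restricted mice (OCR), with 2280 to 2536 CPM in OAL, whereas the transplanted groups, knockdowns included, held 5318 to 7928 CPM. G2/M genes lay at 2124 to 4308 CPM in native and 5121 to 8100 CPM in transplanted groups. The genes that rise with age summed to 13165 to 13890.3 CPM in HSCs of young ad lib mice (YAL), 21138 to 22634 CPM in OAL, 11847 to 12600 CPM in GFP_Scramble and 10476 to 11196 CPM in Double_Scramble. Non-polyadenylated RNAs were at 8134 CPM or more in each native library and at 5092 CPM or less in each transplanted library. Native and transplanted groups differ in library batch throughout, so that these ranges cannot be told apart from it.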

How the data were processed

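RNA-seq libraries of sorted HSCs were used, 4 of OAL, 2 of GFP_Scramble and 2 of Double_Scramble. The deposited values are raw counts per gene: per the labels and methods, the authors trimmed reads with Trim Galore and cutadapt, aligned them to mm10 with STAR and counted them over genes with featureCounts, with no version stated for STAR and featureCounts. Strand setting and the handling of reads with several positions are not stated. Gene types and positions were taken from GENCODE M21 (GRCm38) by name for 54402 of 55376 genes.

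Counts were fitted with edgeR 4.0.16 in R 4.3.3 (TMM factors, quasi-likelihood F test, BH adjustment over 12236 genes). Groups of GFP_Scramble, Double_Scramble and OAL were compared in a fit of 3 groups. Standard errors were derived from the estimate and its F statistic. Alternatives used DESeq2 1.42.0, other scalings and filters, left-out libraries, and a replicate block. Scripts were tested on simulated data. Figures were drawn with matplotlib 3.10.9 in Python 3.11.15. Total counts ranged from 30235212 to 41580296, so that a level of 5 CPM is at least 151 counts in a library. Genes almost absent from the scramble libraries, such as Meis2, Osmr and Dlk1, passed the filter through OAL alone, and their fold changes rest on few scramble counts.

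Members and the 42 gene lists (1062 genes) were chosen with earlier results of these data known. Genes were named by rule: the 12 protein-coding DEGs with the largest fold change in each direction and no overlap of libraries, a list of anchor genes, up to 4 genes of largest change and 2 of highest CPM per list, the 4 DEGs of largest change each way between Double_Scramble and GFP_Scramble, and the 4 genes on each side of the filter. Exceptions are marked in the text, and a few genes are not reported. Other RNA-seq groups entered only in the list sums given for scale and in the fit of all 34 libraries, and ATAC-seq and other assays of the series were not used.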

Additional observations from a re-analysis of the deposited data

Results flagged for a closer look

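A library was listed here when its gap to the nearest of the other 3 in its group exceeded the share of the group's range that Dixon's 95% critical value for 4 samples allows, as it did in 7 of the 170 groups of 4 looked at. Chance flags about 1 in 20 groups. The immediate early genes summed to 1473 CPM in OAL library 1 against 1081 to 1125 CPM in the other OAL libraries, Fos was at 4.57 CPM there against 2.32 to 2.60 CPM, and Egr1 at 166 CPM against 56.2 to 63.0 CPM. The glycolysis genes summed to 6195 CPM in OAL library 2 against 6513 to 6546 CPM in the others. Pdk4 was at 14.6 CPM in OAL library 4 against 8.74 to 9.29 CPM. Osmr was at 1.72 CPM in GFP_Scramble library 1 against 0.186 to 0.199 CPM in the other scramble libraries, and Ddx3y at 108 CPM in Double_Scramble library 1 against 127 to 129.8 CPM.

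Of 33 anchor genes 6 differed between the scramble groups at a BH-adjusted p below 0.05 in edgeR's quasi-likelihood test, n = 2 against 2 within the 3-group fit, as did 206 of all 12236 genes (1.68%), a count that fell to 74 without Double_Scramble library 1 and to 46 without GFP_Scramble library 2. Mki67, Cdk1 and Ccna2 were called with the 4 scramble libraries alone and with any of them left out, Ect2 and Vwf in 3 of these 5 settings and Ly6a in 1. The log2 difference of Double_Scramble from GFP_Scramble was -0.48 for Ly6a (SE 0.0936, adjusted p = 0.0297), 0.79 for Mki67 (0.102, 0.00650), 0.67 for Cdk1 (0.0842, 0.00650), 0.88 for Ccna2 (0.0782, 0.00136), 0.86 for Ect2 (0.139, 0.0126) and -1.06 for Vwf (0.163, 0.0110).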

How the results depend on the processing

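Against OAL, the filter moved the counts most. With filterByExpr 15486 genes (38.1% higher) were called in scramble against OAL, 19076 in GFP_Scramble against OAL and 19801 in Double_Scramble against OAL, and with no filter beyond 1 count 30046 (23.4% higher), 24065 and 24733. Between the scramble groups DESeq2 called 524 genes and edgeR without a filter 656. Leaving out each library in turn gave 6669 to 7077 DEGs for scramble against OAL, 5549 to 6421 for GFP_Scramble, 6611 to 7185 for Double_Scramble and 46 to 200 between them, where a lone library is assumed to vary like the other groups. The remaining settings for scramble against OAL gave 5262 (a fit of all 34 libraries) to 9330 (at least 10 counts in every library), with 6953 for DESeq2, 6935 for its size factors in edgeR, 6871 (39.9% higher) for upper quartile factors, 7020 for the mean of both scramble groups and 6156 for protein-coding genes alone. Settings chosen after seeing the data gave 5992 without both Double_Scramble libraries and GFP_Scramble library 2, 6547 without OAL libraries 1 and 3, and 7741 with TMM factors from all genes.

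Medians larger than the SD between scramble libraries that changed sign were glycolysis (filterByExpr 0.034, no filter 0.11, TMM factors from all genes 0.11), polycomb (no filter 0.0227, TMM factors from all genes 0.0226), erythroid (-0.042 to 0.59 with 1 library left out, and -0.86 over 7 markers without the 3 scramble libraries named above), mast cell and basophil (-0.34 for 1 gene without the same 3) and plasma cell (0.44 for 1 gene without OAL libraries 1 and 3). Medians smaller than that SD changed sign under at least 1 setting for the sort gate, interferon, p53, MHC class I and II, myeloid regulator, sex-linked, B cell and T and NK cell lists. Of 249 named genes 49 changed their call under at least 1 setting (66 values newly past the threshold, 88 no longer past it, 4985 the same). Over 42 list medians 163 values moved by more than 1 SD and 709 did not.

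Replicate numbers do not pair the libraries (correlations of deviations 0.103, -0.00669, -0.0538, -0.0203 and -0.125). With the number as a block the 4 counts were 6537, 6087, 6894 and 202. Culture, virus, transplantation, host, sort gate, extraction, kit and sequencer all differ between the groups and were not separated by any setting.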
